A study of Gallus gallus with 6 samples.

Results

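The chromosome Z genes of the chicken jejunum were described by their position along the chromosome. All 1245 genes that the deposited table places on chromosome Z were taken, of 24356 genes in all, and were sorted by their start into 17 windows of 5 Mb, numbered from the start of the chromosome. The genes run from position 431 to position 82484848 in GRCg6a, the genome build named in the submitters' processing notes. Of the 1245 genes, 685 have a symbol. The 652 with a mean of at least 0.5 FPKM over the 6 libraries (counts scaled by the exonic length of the gene and the total of the library) were tested and compared between libraries, and 593 were under this level.

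The birds were Korat chickens, a slow-growing cross of a Thai indigenous line with a broiler line, which the study's methods describe as males. They were kept in individual cages, had free access to the same series of starter, grower and finisher feeds, and were sampled at 10 weeks of age. Jejunum RNA was sequenced from 3 birds with an extremely low feed conversion ratio (FCR, feed eaten per weight gained; L1, L2 and L3) and 3 birds with an extremely high FCR (H1, H2 and H3), with 1 library per bird. The title of the H3 sample carries both its high-FCR code and the word low-FCR, and it was placed in the high-FCR group, as in the study. Each group holds the extremes of 1 flock, so a difference in FCR goes with any other difference between these birds.

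In birds, males carry a pair of Z chromosomes and females carry a single Z with a W. Unlike mammals, birds do not silence a whole sex chromosome, and their compensation for the single Z is incomplete and varies from gene to gene. Most genes of the W have a close relative on the Z, left over from the pair of ordinary chromosomes from which both descend. The Z also carries DMRT1, the dosage-dependent testis determinant of birds, and a locus named MHM from which females make a long noncoding RNA. No gene in the table has the symbol MHM.

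Library totals ranged from 10436038 to 11370043 counts, and a count of 3 equalled 0.249 to 0.304 CPM (counts scaled to a common library size after adjustment by the trimmed mean of M-values). The library labelled L1 stood apart from the other libraries on the sex chromosomes. It held 16140 counts on chromosome W, with 37 of the 124 W genes at 10 counts or more, against 48 to 80 counts and 1 to 3 such genes in each of the other birds. The labels name no sex for any bird. The W counts and the Z level of the library labelled L1 go against the description of the birds as males in the study's methods, and whether the bird or the sample differs from that description was not tested. L1 also differed in cell type markers. The summed level of 3 listed markers of ileal enterocytes was 4822 CPM in L1, against 55.1 to 716 CPM elsewhere. Most of this sum came from 1 of them, FABP6, with 4580 CPM in L1 and 652 CPM in H2, the next highest. The sum of 6 smooth muscle markers was 15964 CPM in L1 against 4202 to 11037 CPM. The summed level of 4 lymphocyte markers was 963 CPM in L1 against 1519 to 2459 CPM. All 8 listed jejunal enterocyte markers were tested, and their sum was 14376 CPM in L1 against 2724 to 11929 CPM elsewhere. This sum too was highest in L1, and enterocyte RNA was present in each library. Whether these markers tell jejunum from ileum was not tested. The part of these marker differences in the values that follow was not tested. Lower RNA per cell and fewer cells of a type cannot be told apart in such tissue libraries.

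In L1 the Z genes lay below their level in the rest of the birds, which were close to each other. For each gene, the level in a library was compared with the median of the other 5 birds as a log2 difference of CPM + 0.5, from which the median over the 13477 tested autosomal genes was taken off. Over the 652 tested Z genes the median of this difference was −0.55 in L1, which is 0.682 times the level of the other birds. The low-FCR birds L2 and L3 were at 0.05 and 0.11, and the high-FCR birds were at 0.04 (H1), 0.06 (H2) and −0.00 (H3). L1 is a single bird, so its value has no replicate. L1 is in the reference of each other bird, which can raise their values, so their side of 0 is partly built in. The Z shares of counts given below use no such reference, and L2 and L3 were within the range of the high-FCR birds there. The low Z level thus belonged to 1 bird and not to its group. Of 32 autosomes with at least 50 tested genes, the median in L1 ranged from −0.28 to 0.09, so no such autosome reached the level of the Z.

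The share of all counts that fell on Z genes was also lowest in L1. It was 2.30% in L1 (95% Wilson interval 2.30% to 2.31%), against 3.59% in L2 and 3.57% in L3, and the high-FCR birds had 3.60% (H1), 3.47% (H2) and 3.30% (H3). The interval of H3, the next lowest, was 3.29% to 3.31%. Such intervals cover counting error only, and reads were not counted by molecular identifiers. On the length-scaled values, the median FPKM of the tested Z genes was 5.04 in L1, against 8.14 to 10.0 in the others. Divided by the autosomal median of the same library it was 0.620 in L1 and 0.863 to 0.928 in the others. Z genes were thus somewhat below autosomal genes in all birds, and further below them in L1.

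Most Z genes were lower in L1, and their spread was about that of its autosomal genes. L1 was the lowest of the 6 birds for 364 of the 652 Z genes (55.8%), against 27.9% of all 14282 genes tested. In L1, 251 Z genes (38.5%) were 0.75 or more below the other birds on the log2 scale, towards the −1 of a halved level, against 16.8% of all genes tested. A further 254 Z genes lay between −0.75 and 0. The remaining 147 (22.5%) were at or above the other birds in L1, against 48.9% of all genes tested. In the other birds 49.8% to 58.3% of Z genes were at or above their peers, and 3.37% to 9.20% were 0.75 or more below. The middle spread in L1 was wide, with quartiles of −1.02 and −0.06, but its autosomal quartiles of −0.47 and 0.46 were wide as well. L3 was the highest of the 6 birds for 198 Z genes (30.4%), the most of any bird, against 21.7% of autosomal genes.

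**Figure D1:**
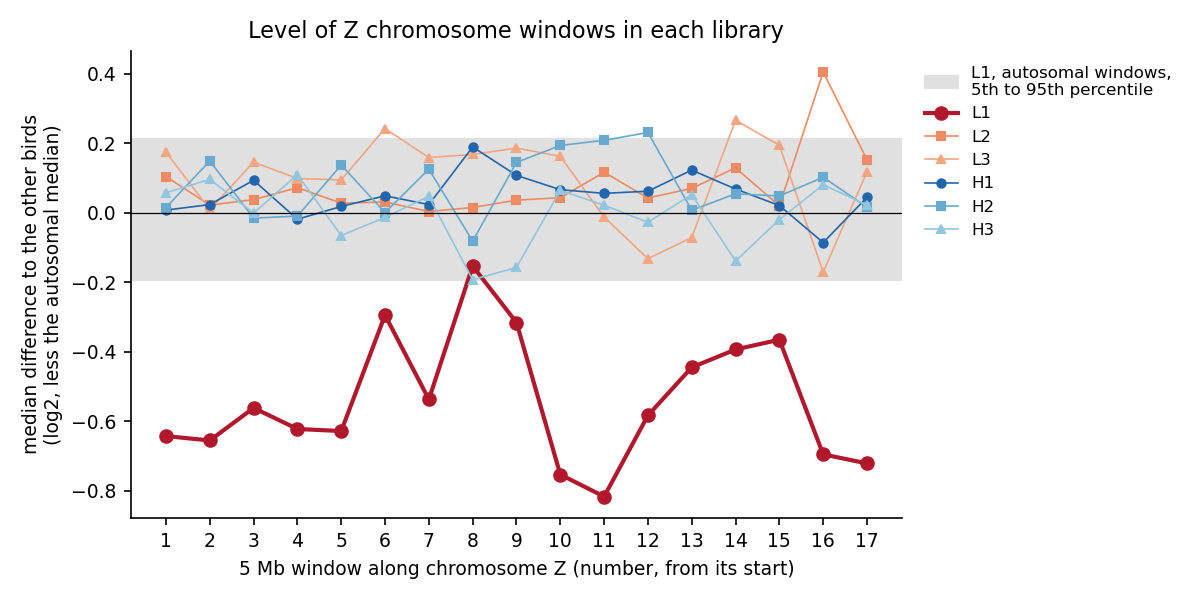
Median log2 difference of the tested Z genes in each 5 Mb window (x axis, window number) to the other birds, less the autosomal median, with 1 line per library and a grey band for the 5th to 95th percentile of autosomal windows in L1. L1 lies between −0.82 and −0.15 in every window, and only window 8 of L1 is inside the band.

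By position, all 17 windows had a median below 0 in L1. They held 10 to 72 tested genes of 44 to 109 listed. In L1 the window medians ranged from −0.82 to −0.15, while over the other birds and windows they ranged from −0.19 to 0.40. L1 had the lowest median of the 6 birds in 16 windows, the exception being window 8, where H3 was lower. The 203 autosomal windows of 5 Mb with at least 10 tested genes gave the background, with medians of −0.48 to 0.45 in L1 and a 5th percentile of −0.20. No autosomal window was at or below the Z level of L1, and 16 of the 17 Z windows were below that 5th percentile.

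The 5 Mb windows at the start of the chromosome had similar medians, although smaller windows within them differed, as given below. Windows 1 to 5 (0 to 25 Mb) had medians of −0.64, −0.66, −0.56, −0.62 and −0.63 in L1, with 43, 72, 54, 39 and 62 tested genes. The lowest 5 Mb medians lay between 45 and 55 Mb, where window 10 had a median of −0.75 over 22 genes and window 11 a median of −0.82 over 43 genes. Only 1 of the 22 genes of window 10 and 3 of the 43 genes of window 11 were at or above the other birds. The last windows, 16 and 17 (75 to 85 Mb), were at −0.70 over 10 genes and −0.72 over 23 genes, with 0 and 2 genes at or above the other birds.

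The least reduced windows lay in several parts of the chromosome. In L1 the window medians had an SD of 0.18 over the 17 Z windows and 0.13 over the 203 autosomal windows, so autosomal windows varied as well. Whether dosage differs between windows of the Z was not tested. Window 6 (25 to 30 Mb), with DMRT1 in it, had a median of −0.29 over 37 genes, and windows 8 and 9 (35 to 45 Mb) were at −0.15 over 28 genes and −0.32 over 51 genes. Windows 13 to 15 (60 to 75 Mb) were at −0.45, −0.39 and −0.37 over 29, 34 and 39 genes. Between them lay windows 10 and 11, given above as the most reduced stretch. Window 7 (−0.54) and window 12 (−0.58), each with 33 genes, lay between them as well. In window 8, 39.3% of the genes were at or above the other birds in L1, and the spread of the other birds was also among the widest there, from −0.19 in H3 to 0.19 in H1. Over the 17 windows, the medians of L1 had r = 0.46 with those of L3 and r = −0.71 with those of H3. These correlations are given as a description, since each bird is part of the others' reference and the windows share their libraries. The median FPKM of a window and its median in L1 had r = 0.09.

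Smaller windows of 2 Mb varied within these stretches. Of 36 such windows with at least 5 tested genes, 34 had a median below 0 in L1. The exceptions were 38 to 40 Mb, with a median of 0.33 over 6 genes, and 72 to 74 Mb, with a median of 0.14 over 15 genes. L3 was also above the other birds in both, with medians of 0.47 and 0.22. Its median was above 0 in most of the 36 windows, however, such as 0.33 at 18 to 20 Mb, where L1 was at −0.75. The lowest median was −0.91, over the 18 genes from 56 to 58 Mb. Neighbouring genes resembled each other only weakly in L1, with r = 0.19 over 651 pairs of adjacent tested genes. The longest run of adjacent genes below 0 in L1 had 35 genes, from SRP19 at 46.1 Mb to SLC49A3 at 52.8 Mb. The longest run at or above 0 had 7 genes, from 72.9 to 73.2 Mb, and ended with TMED7.

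**Figure D2:**
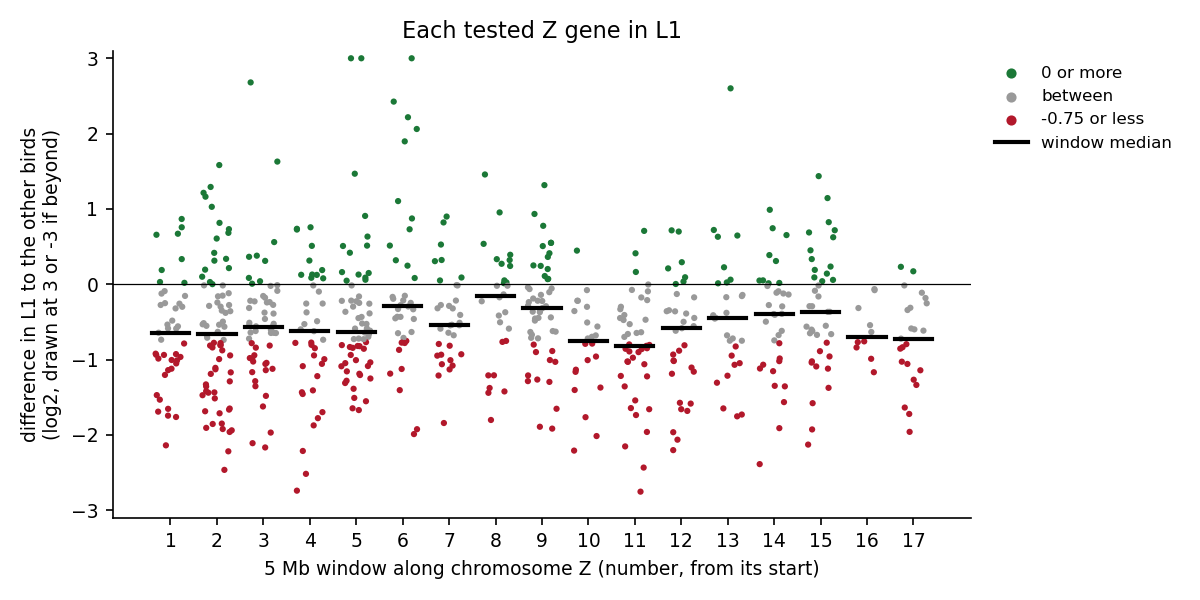
Log2 difference of each of the 652 tested Z genes in L1 to the other birds (y axis, drawn at 3 or −3 where beyond) by 5 Mb window (x axis), with black bars for window medians. Green points (147 genes) are at or above the other birds, red points (251 genes) are 0.75 or more below, and both kinds occur in nearly every window, with no green point in window 16.

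The most abundant gene with a symbol in each window gave a cross-section of the chromosome. L1 was the lowest bird for 7 of these 17 genes and the highest for 3, and 5 were at or above the other birds. Over all tested Z genes, L1 was the lowest for 55.8% and the highest for 8.90%, and 22.5% were at or above. Among the leading genes lowest in L1 was RPS6, a protein of the small ribosomal subunit in window 7. It had 812 CPM in L1 against 1047 to 1368 CPM in the others. IQGAP2, a scaffold of the epithelial cytoskeleton in window 5, had 256 CPM in L1 against 393 to 495 CPM. GNE, the key enzyme of sialic acid synthesis in window 11, had 181 CPM in L1 against 324 to 436 CPM. In window 9 CDC42SE2, an effector of the GTPase CDC42, had 95.4 CPM in L1 against 141 to 196 CPM, and in window 17 SNX2, a sorting nexin of endosomes, had 151 CPM against 166 to 235 CPM. These ranges did not overlap with L1.

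Other leading genes stayed within or above the range of the other birds. NREP in window 10 had 117 CPM in L1 against 108 to 127 CPM, although it lay in the second most reduced window. SMARCA2, the ATPase of the SWI/SNF chromatin remodeller in window 6, had 318 CPM in L1 against 256 to 311 CPM, and RPL37, of the large ribosomal subunit in window 3, had 331 CPM against 218 to 297 CPM. For both, L1 was the highest bird, by a small margin. ALDH1A1, a retinal dehydrogenase in window 8, had 477 CPM in L1 against 105 to 508 CPM, so the other birds ranged widely for this gene. TMEM167A in window 13 had 64.6 CPM in L1 against 55.8 to 86.1 CPM, and CDKN2B, an inhibitor of cell cycle kinases in window 16, had 97.9 CPM against 88.4 to 322 CPM.

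The genes with the highest differences in L1 were drawn from the 434 Z genes whose counts averaged 100 or more. Of these, 84 (19.4%) were at or above the other birds in L1, against 49.1% of the 9990 genes of all chromosomes with such counts, and 32 (7.37%) had their highest level there, against 27.4%. The log2 difference was 0.5 or more for 33 genes (7.60%, against 20.5%) and 1 or more for 10 (2.30%, against 6.46%). Such differences were thus less frequent on the Z than over all genes of that count. L3 was 0.5 or more above the other birds as well for 7 of these 10 genes, and for 29 of the 84. Of the 84, 40 were within 0.5 of the other birds in L3. Over all 652 tested Z genes of any count, 150 were 0.5 or more above the other birds in L3, and 398 were within 0.5. Of the 13477 tested autosomal genes, 2623 were 0.5 or more above in L3. Whether any single gene escaped the lower level of the Z was not tested. L1 is a single bird, and its autosomal genes spread widely as well.

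By far the largest difference was at ENSGALG00000051419, a gene without symbol or description on the minus strand of chromosome Z from 27317307 to 27383989, in window 6. It had 1165 counts in L1, against 2 in L2 and 1 in L3, 3 in H1 and 0 in both H2 and H3. Its reads thus came almost wholly from 1 bird. The gene reached the mean count required for this ranking only through L1, the library whose difference is reported. With so few reads elsewhere, its difference cannot show whether it escaped the lower level of the Z. Per scaled library, L1 had 1123 times the pooled level of the other 5 birds, with an exact 95% interval of 514 to 3066 for counting error only. The 12 other tested genes whose start lay within 0.5 Mb had a median of −0.68 in L1, 22 within 1 Mb had −0.27, 31 within 2 Mb had −0.29 and 84 within 5 Mb had −0.46. At or above the other birds were 2 of the 12 (16.7%), 6 of the 22 (27.3%), 10 of the 31 (32.3%) and 23 of the 84 (27.4%), against 21.7% of the 567 genes more than 5 Mb away. The testis determinant DMRT1 (25949442 to 26005324) had 0 counts in L1, against 0 to 1 elsewhere, and its neighbours DMRT3 and DMRT2 had at most 2, so their dosage was not detectable at this depth.

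A pair of genes side by side in window 5 were high in L1 and in L3. FOXD1, a forkhead transcription factor of mesenchymal cells from 24754667 to 24755989, reached 371 counts in L1, with 277 for L3 and 42 for H2, but 0 for L2, 1 for H1 and 3 for H3. ENSGALG00000052579, from 24759240 to 24760422, reached 745 counts in L1, with 332 for L3 and 14 for H2, but 2 for L2, 3 for H1 and 2 for H3. Both were thus high in the same 2 low-FCR birds and nearly absent from L2. Both also reached the mean count required for this ranking only with L1 included. FABP6, the ileal bile acid-binding protein and not on the Z, had 4580 CPM in L1, 328 CPM in L3 and 652 CPM in H2, against 13.5 CPM in L2, 193 CPM in H1 and 14.1 CPM in H3. The part of this marker in the FOXD1 values was not tested.

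More genes of the region from 25 to 26 Mb followed the same birds. TMEM252, a membrane protein, had 59.8 CPM in L1, 176 CPM in L3, 14.0 CPM in H1 and 10.6 CPM in H2, against 0.446 CPM in L2 and 0.0880 CPM in H3. MAP1B, a microtubule protein of neurons, had 95.7 CPM in L1 and 63.9 CPM in L3, against 13.9 to 32.6 CPM in the others. The summed level of 3 listed neuron and glia markers was 27.8 CPM in L1 and 17.3 CPM in L3, against 6.88 to 17.8 CPM in the others. In window 15, CDO1, which starts the breakdown of cysteine, had 42.0 CPM in L1 and 50.2 CPM in L3 against 5.08 to 16.2 CPM. L1 and L3 were thus both above the other birds for these genes, except that H1 exceeded L3 in the summed neuron and glia markers.

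A few of the genes that were high in L1 were not high in L3. BRT-1 in window 2, described in the table as tropomyosin 2, a thin-filament protein of muscle, had 1933 CPM in L1 and 1485 CPM in H1, against 708 to 1020 CPM in the others. L1 and H1 also had the highest sums of smooth muscle markers. FBP1, a gluconeogenic enzyme in window 9, had 127 CPM in L1 and 152 CPM in L2, against 22.0 to 107 CPM in the others. By contrast, DNAJA1, a co-chaperone of HSP70 and the leading gene of window 15, had 427 CPM in L1, 849 CPM in L3 and 506 CPM in H3, against 153 to 239 CPM in the rest.

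**Figure D3:**
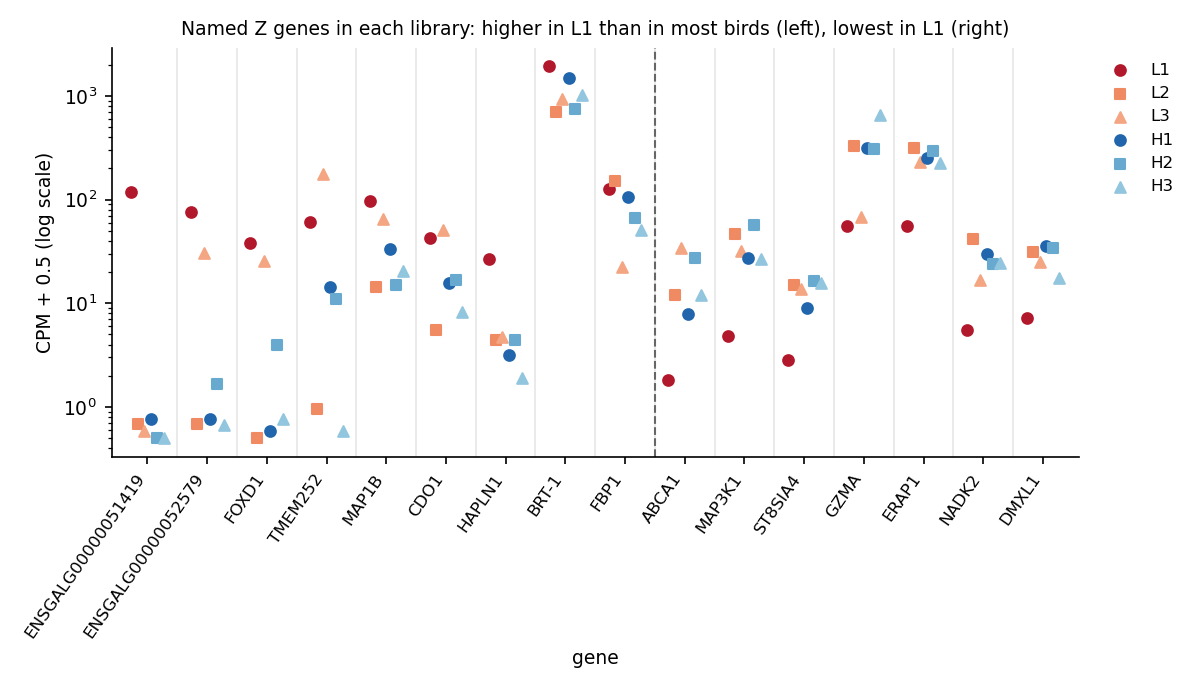
CPM + 0.5 on a log axis for 16 named Z genes (x axis) in each of the 6 libraries. On the left, L1 is alone in ENSGALG00000051419 and HAPLN1 and close to L3 in FOXD1, MAP1B and CDO1. On the right, L1 is the lowest bird for all 7 genes.

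At the other end, 119 of the 434 genes (27.4%, against 9.11% of the 9990) were 1 or more below the other birds on the log2 scale in L1, and 45 (10.4%, against 2.74%) were 1.5 or more below, past a halved level. ABCA1, the cholesterol exporter in window 11, had 1.32 CPM in L1 against 7.31 to 34.0 CPM, a difference of −2.75. MAP3K1, a kinase of the JNK pathway in window 4, had 4.36 CPM in L1 against 26.5 to 55.9 CPM, a difference of −2.74. ST8SIA4, which makes polysialic acid, had 2.33 CPM in L1 against 8.44 to 15.8 CPM, NADK2, the mitochondrial NAD kinase, had 4.96 CPM against 16.2 to 41.6 CPM, and DMXL1, a regulator of the vacuolar proton pump, had 6.69 CPM against 17.0 to 34.8 CPM. L1 lay outside the range of the other birds for each of these. ERAP1, which trims peptides for MHC class I in window 12, had 54.8 CPM in L1 against 225 to 314 CPM. GZMA, the granzyme A of cytotoxic lymphocytes in window 4, had 55.1 CPM in L1 and 67.8 CPM in L3 against 311 to 661 CPM, so its low level was shared with L3.

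Grouped by function, the Z genes of immune signalling had the lowest median in L1. Of 20 tested, 14 were 0.75 or more below the other birds, where the share over all tested Z genes was 38.5%. The other 6 were at or above, where that share was 22.5%, so the list was split. Its median was −1.01, against −0.55 over all tested Z genes, and its largest difference was 0.76. L1 was the highest bird for 2 of the 20. The genes of the list given in this paragraph are among the 14. The lymphocyte markers, none of them on the Z, had a lower sum in L1 as well, and PTPRC, the leukocyte marker CD45, had 234 CPM in L1 against 476 to 585 CPM. CCL19, a chemokine that guides lymphocytes to lymphoid tissue, had 74.9 CPM in L1 and 59.2 CPM in L3 against 126 to 514 CPM. The gene with the symbol CCL21, whose description names another chemokine, had 83.0 CPM in L1 against 238 to 958 CPM. Of these 20 genes, 0 passed the test between the FCR groups at an adjusted p under 0.05.

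The 16 tested genes of mitochondrial energy metabolism had a median of −0.26 in L1, with 6 at or above the other birds and 2 at 0.75 or more below. The summed jejunal enterocyte markers were highest in L1 as well, and their part in these values was not tested. OXCT1, which activates ketone bodies, had 185 CPM in L1 against 104 to 246 CPM, and ACAA2, of mitochondrial β-oxidation, had 74.6 CPM against 41.5 to 158 CPM. ACO1, listed with them though it is the cytosolic aconitase, had 75.2 CPM in L1 against 70.5 to 129 CPM. All of these were within the range of the other birds. The 3 ribosomal protein genes were at −0.12 (RPL17), −0.64 (RPS6) and 0.31 (RPL37). The 23 genes of sugar and lipid metabolism were close to the chromosome as a whole, with a median of −0.56, 8 at 0.75 or more below and 5 at or above. Among them, PLPP1, a lipid phosphatase, had 210 CPM in L1 against 157 to 242 CPM.

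The remaining groups were mixed. The 17 tested genes of epithelium, adhesion and matrix had a median of −0.45 in L1, with 6 at or above and 6 at 0.75 or more below. ITGA1, a collagen-binding integrin subunit, had 84.1 CPM in L1 against 115 to 180 CPM, and APC, the brake on WNT signalling, had 50.4 CPM against 84.3 to 113 CPM. ELOVL7, listed with them though it is a fatty acid elongase, had 93.9 CPM in L1, within the 66.8 to 133 CPM of the other birds. All 7 tested solute carriers were below 0 in L1, with a median of −0.60. SLC44A1, a choline transporter, had 17.0 CPM in L1 against 21.3 to 72.5 CPM, and SLC12A2, the basolateral sodium, potassium and chloride cotransporter, had 45.0 CPM against 92.4 to 144 CPM. SLC25A46 had 28.6 CPM in L1 against 31.5 to 49.2 CPM, whereas SLC30A5, a zinc transporter, was within the range with 74.3 CPM in L1 against 69.9 to 93.3 CPM. Of 9 tested genes listed for sex determination and the gonad, 4 were at or above the other birds and the median was −0.26. The list was broad and holds genes of wider roles, such as SMC2 and FANCG. SMC2, a condensin subunit, had 118 CPM in L1 against 203 to 380 CPM, and KANK1, next to DMRT1, had 48.1 CPM against 36.1 to 57.0 CPM.

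Genes with a copy on both sex chromosomes allowed the W copy to be added. The table's descriptions gave 18 such pairs, chosen after their values had been seen. The difference of the Z copy in L1, less the autosomal median, was below 0 for all 18, with a median of −0.58. For SUB1 it was only −0.01. The Z copy was under the range of the other 5 birds for 15. The W copies had 36 to 1370 counts in L1 and 0 to 2 over the other 5 birds together. When the W and Z copies were summed, the median was −0.07, and L1 was within the range of the other birds for 8 pairs, above it for 4 and below it for 6. These values hold only for the chosen pairs, all with W counts in L1. TNPO1, BTF3 and TMEM161B, given below, are not in these sums, and their Z copies were under the range of the other birds. Reads can be split wrongly between such near-identical copies, and their exonic lengths differ, so these sums are uncertain.

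The pairs differed in how far the W copy went. For CHD1Z, a chromatin remodeller in window 11, the Z copy had 155 CPM in L1 against 175 to 263 CPM, and with the W copy 253 CPM, of which 38.6% was from the W (exact 95% interval 36.7% to 40.6%). For the Z gene described as heterogeneous nuclear ribonucleoprotein K, an RNA-binding protein, the Z copy had 102 CPM in L1 against 203 to 286 CPM, and the sum was 226 CPM, of which 55.2% was from the W (53.1% to 57.2%). In both, the sum was within the range of the other birds. For UBE2R2, a ubiquitin-conjugating enzyme, the Z copy had 37.4 CPM in L1 against 47.5 to 61.5 CPM and the sum was 70.1 CPM, above all other birds. VCP, an ATPase that extracts ubiquitinated proteins, had 217 CPM in L1 from the Z copy and 320 CPM in sum, against 266 to 395 CPM.

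Other pairs stayed low. NEDD4L, a ubiquitin ligase that limits sodium channels, had 69.3 CPM in L1 from the Z copy and 76.4 CPM in sum, against 132 to 188 CPM. SPIN1Z, a reader of histone methylation, had 89.5 CPM in L1 and 115 CPM in sum, against 125 to 156 CPM. The Z gene described as RAS p21 protein activator 1 had 27.5 CPM in L1 and 44.2 CPM in sum, against 79.0 to 112 CPM. At the other extreme SUB1, a transcriptional coactivator, had 173 CPM in L1 from its Z copy alone, within the 139 to 201 CPM of the other birds, and 2.07% of its sum was from the W (1.45% to 2.85%). SMAD2Z, a mediator of TGF-β signals, had 57.8 CPM in L1 and 83.5 CPM in sum, against 60.5 to 81.3 CPM. ATP5A1Z, the alpha subunit of ATP synthase, was within the range with its Z copy alone, at 372 CPM in L1 against 236 to 674 CPM. Among listed pair members whose W copy was not used here, TNPO1, an import receptor, had 10.7 CPM in L1 against 24.9 to 46.6 CPM, BTF3 had 146 CPM against 167 to 245 CPM, and TMEM161B had 9.12 CPM against 15.1 to 22.8 CPM.

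**Figure D4:**
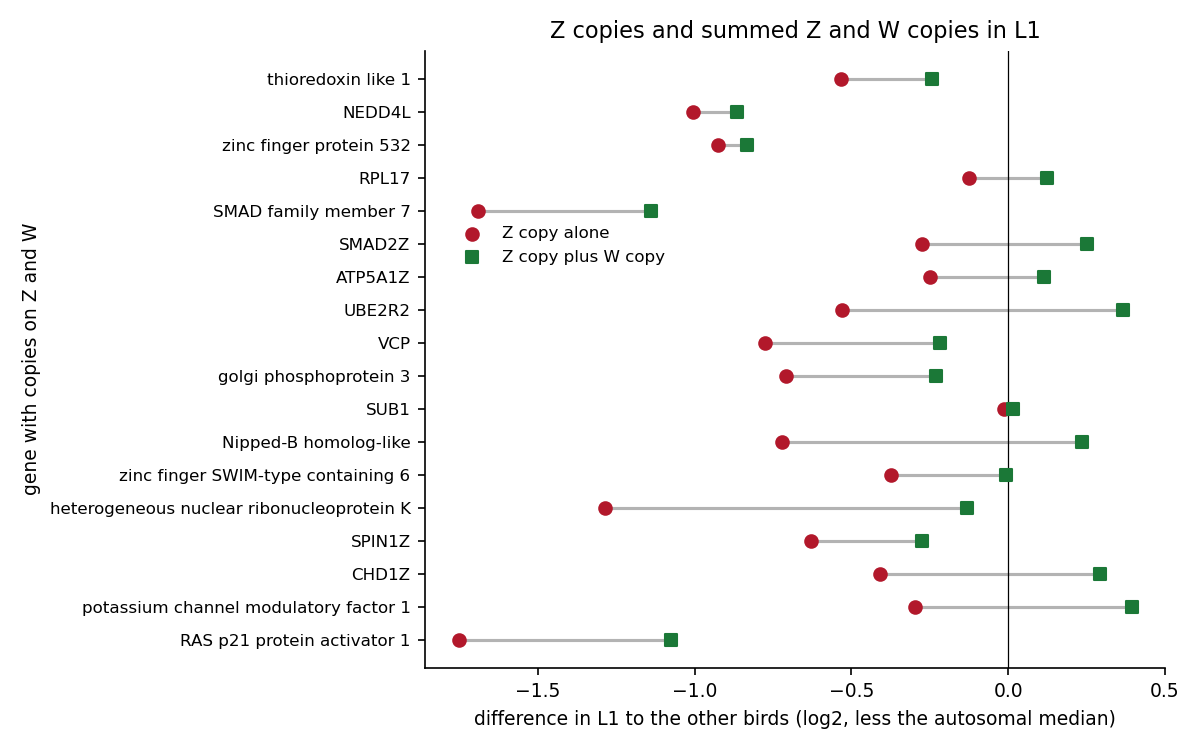
Log2 difference in L1 to the other birds (x axis) of 18 genes with copies on Z and W (y axis, in order of their Z position), for the Z copy alone (red circles) and for the summed copies (green squares). All red circles are below 0, and 8 of the green squares are above it.

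The median in L1 was below 0 in each split of the Z genes that was made. Genes with a mean FPKM of up to 4.48 had a median of −0.46, those up to 16.3 had −0.72, and those above had −0.47. The autosomal genes in the same ranges had medians of −0.04, −0.10 and 0.12. Genes with a symbol had a median of −0.54 and those without had −0.59. For the 142 Z genes whose other 5 birds lay within 0.5 of each other on the log2 scale, the median in L1 was −0.56, and 20 were at or above the other birds. The 150 genes that were 0.5 or more above the other birds in L3 had a median of −0.42 in L1, with 31.3% at or above. The 398 within 0.5 in L3 had −0.59, with 19.3% at or above, and the 104 that were 0.5 or more below in L3 had −0.57, with 22.1%. Genes on the plus strand were at −0.53 and those on the minus strand at −0.59.

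The 593 untested Z genes held few reads. Of these, 296 had 0 counts in all libraries, 180 had 1 to 9 counts in all and 117 had 10 or more. By name, 59 of the 593 were microRNAs, 29 of them in window 13, and 7 were type I interferon genes, while 426 had no symbol.

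The comparison of the study, low-FCR against high-FCR birds, gave 0 Z genes at an adjusted p under 0.05 with edgeR's quasi-likelihood test and Benjamini-Hochberg adjustment, against 0.0% of all 14282 genes tested. The smallest adjusted p of a Z gene was 0.997 by edgeR and 0.204 by DESeq2. At an unadjusted p under 0.05 there were 9 Z genes higher in the low-FCR birds (1.38%, against 2.02% of all genes) and 6 lower (0.920%, against 1.22%). DESeq2 gave 0 Z genes at its adjusted p, against 0.056% of all genes, and 23 at the unadjusted p (3.53%, against 4.09%). The groups did not overlap for 37 of 652 Z genes (5.67%), against 6.36% of all genes tested. By each of these measures the share of Z genes was at or below that of all genes. The birds are separate animals, so the p-values measure the spread between birds.

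As a whole, the Z was lower in the low-FCR group, and this rested on L1. The median log2 FC (low-FCR over high-FCR) was −0.12 over the Z genes and 0.02 over the autosomal genes, and 423 of the 652 Z genes were below 0 (64.9%, against 47.5% of autosomal genes). Without L1, the Z median was 0.03 and 299 genes (45.9%) were below 0. Less the autosomal median, the window medians ranged from −0.29 (window 12) to 0.03 (window 8) with all birds, and 15 of 17 were below 0. With L2 and L3 alone against the high-FCR birds they ranged from −0.11 to 0.19, and 4 were below 0.

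**Figure D5:**
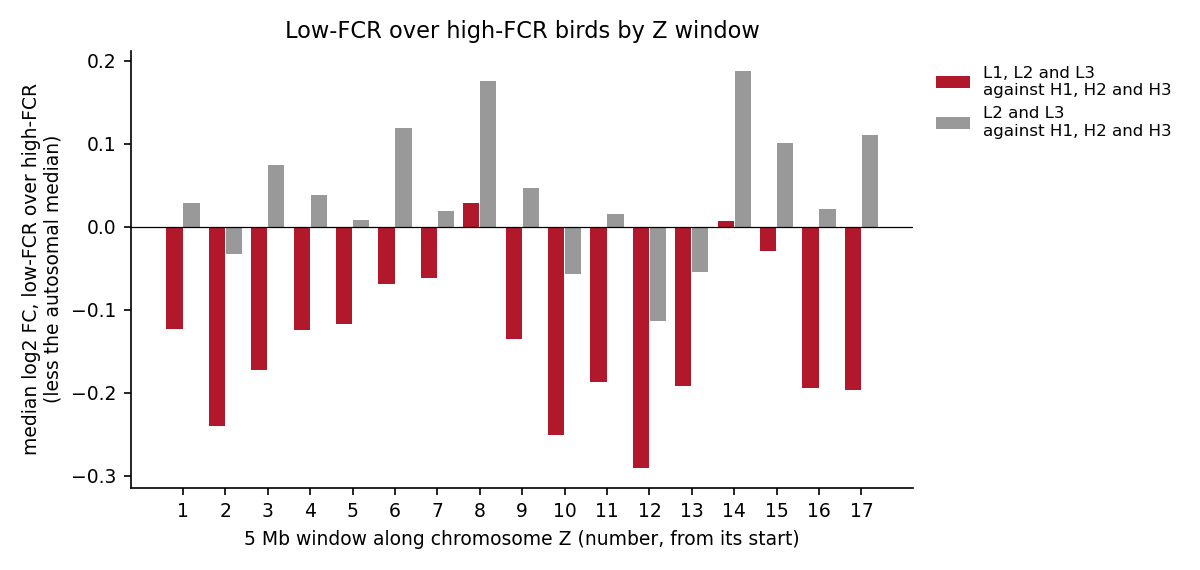
Median log2 FC of the tested Z genes, low-FCR over high-FCR birds and less the autosomal median (y axis), in each 5 Mb window (x axis), with all 3 low-FCR birds (red bars) and without L1 (grey bars). With L1, 15 of 17 windows are below 0, and without L1 4 are.

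Among the Z genes with the smallest unadjusted p, AVD did not rest on L1. AVD encodes avidin, the biotin-binding protein of egg white, and lies in window 2 from 9164659 to 9166088. It had 70.6, 65.2 and 39.0 CPM in L1, L2 and L3, against 119, 102 and 203 CPM in H1, H2 and H3. All low-FCR birds were below all high-FCR birds, with 58.3 ± 16.9 CPM against 141 ± 54.2 CPM (SD, n = 3 each). AVD was picked by its p in this same comparison, so this separation is a description and no further support. Its log2 FC was −1.27 ± 0.34 (SE; edgeR adjusted p = 0.997), and −1.45 without L1. PMAIP1, a BH3-only inducer of apoptosis, had 1.82, 5.17 and 3.38 CPM in L1, L2 and L3, against 6.88, 6.71 and 9.42 CPM in H1, H2 and H3. For PMAIP1 the log2 FC was −1.14 ± 0.47 (SE; edgeR adjusted p = 0.997), and −0.85 without L1.

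A pair of genes without symbol were nearly absent from the low-FCR birds. ENSGALG00000049045 (window 12, from 56484134 to 56501003) had 0, 0 and 5 counts in L1, L2 and L3, against 18, 25 and 41 counts in H1, H2 and H3. ENSGALG00000051402 (window 17, from 81991010 to 81996297) had 3, 1 and 5 counts in L1, L2 and L3, against 32, 37 and 10 counts in H1, H2 and H3. The groups did not overlap for either, but the counts were low and the adjusted p of both was 0.997 by edgeR. Both were picked by their p in this same comparison, so the lack of overlap is no further support. AVD and these 2 genes are also in the study's list of differing genes, which was made from these birds. The study made that list with DESeq2, under a wider limit on the adjusted p than the one used here. In that list, AVD and ENSGALG00000049045 were also under the limit used here, and ENSGALG00000051402 was not. The study also reports RT-qPCR on the same RNA for a set of genes, apparently with AVD among them (written ADV), and concordant patterns by both methods. DESeq2 as run here also gave 0 Z genes at an adjusted p under 0.05, the smallest being 0.204. Why this outcome differs from the study's list was not tested.

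Of the genes with the smallest p that were higher in the low-FCR birds, LPL kept its value without L1. LPL, the lipoprotein lipase that releases fatty acids from triglycerides, had 14.0, 16.2 and 15.4 CPM in L1, L2 and L3, against 10.3, 5.63 and 8.98 CPM in H1, H2 and H3. Its log2 FC was 0.87 ± 0.34 (SE; edgeR adjusted p = 0.997) and 0.93 without L1. HAPLN1, a link protein of the hyaluronan matrix, had 26.4, 3.92 and 4.20 CPM in L1, L2 and L3, against 2.70, 3.89 and 1.41 CPM in H1, H2 and H3. Its groups did not overlap either, but it too was picked by its p, and L1 alone was far above the rest. The log2 FC of HAPLN1 was 2.10 with L1 and 0.60 without. For ENSGALG00000051419 the log2 FC was 8.66 with L1 and 0.59 without, on the few counts given above. FOXD1 and ENSGALG00000052579, high in both L1 and L3, had 4.01 and 6.01 with L1 and 3.29 and 4.80 without. FANCG, of the Fanconi anaemia DNA repair complex, and SLC30A5 also showed no overlap, with log2 FC of −0.59 and −0.27 and an unadjusted p above 0.05 by edgeR.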

How the data were processed

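The data are 6 RNA-seq libraries of chicken jejunum, 3 per FCR group. According to the study's methods and the submitters' processing notes, the authors used cutadapt 1.9.1 for trimming, HISAT2 2.0.1 for mapping to GRCg6a and HTSeq 0.6.1 for the deposited whole-number counts per gene. Strand settings and the annotation release are not given in the sources used here, so overlapping and antisense genes cannot be told apart. The deposited FPKM follow from the counts, the exonic gene sizes (another deposited column, used only for this) and the library totals, as checked on the values within 0.005.

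Counts were normalized by TMM and tested with edgeR 4.0.16 in R 4.3.3 over all genes averaging 0.5 FPKM or more, with Benjamini-Hochberg adjustment over all of them. DESeq2 1.42.0 and limma 3.58.1 on log2(FPKM + 0.5) were alternatives, as were other scalings, filters, pseudocounts, references, window sizes, each library left out, a replicate block and H3 grouped as low-FCR. Differences to the other birds used log2(CPM + 0.5). The SE of a log2 FC was taken from its size and the F statistic.

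Named genes were the most abundant of each window, the 12 highest and 8 lowest in L1 among genes whose counts averaged 100 or more, the 5 of smallest p in each direction, the members of the Z/W list and 4 of each other list, and the study's listed Z genes, with at most 2 genes without a symbol in each direction. The Z genes and lists were chosen with earlier results of these data known, and SRP19, SLC49A3, TMED7, PTPRC, FABP6, DMRT2 and DMRT3 and the pairs given by description were named after their values were seen. A pair of genes that the rule named are not reported here. Sequences were not used here.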

Additional observations from a re-analysis of the deposited data

How the results depend on the processing

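The low Z level of L1 kept its direction under every alternative run. The level of L1 moved to −0.24 without a filter on low values, where 38.9% of Z genes were at or above the other birds, and to −0.46 with a pseudocount of 2 CPM. With each other library left out it was −0.55 to −0.52, and among the 142 Z genes steady in the other birds, chosen as an alternative after seeing the data and centred on equally steady autosomal genes, −0.55. Without genes that stood out in L3, also chosen after seeing the data, the level was −0.56 and 17 of 17 window medians were below 0. Without the filter, 15 of 17 window medians were below 0. For single windows, 65 of 221 alternative medians moved by more than the spread of the other birds. Between the FCR groups, the Z genes at an unadjusted p under 0.05 numbered 23 by DESeq2 (3.53%, against 4.09% of all genes), 27 without the filter (2.85%, against 3.56%), and 9 to 72 with each library left out. The 9 were without H3 (1.38%, against 2.15%) and the 72 without L2 (11.04%, against 9.91%). The median log2 FC was −0.24 by limma, where the autosomal median was −0.09. Less the autosomal median it was −0.15 by limma, against −0.14 in the main fit. With each library left out, the median before this subtraction was −0.245 to 0.0252, the positive value without L1. The number of windows with a negative low-minus-high median was 4 to 17 with each library left out, the 4 without L1. Nothing in the study's methods pairs the birds by replicate number. Same-numbered deviations from the group means correlated at r = 0.16, 0.15 and 0.00, and differently numbered ones were not computed for comparison. A fit with the replicate block gave 1 Z gene at an adjusted p under 0.05 by edgeR, ENSGALG00000051419, which rests on L1, of 2 genes in all, 26 Z genes at the unadjusted p (3.99%, against 3.87% of all genes) and a median log2 FC of −0.18. Genes under about 3 counts per library cannot show a dosage difference at this depth.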
